A study of Schizosaccharomyces pombe with 4 samples.

Results

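The 10 genes described here are core cell cycle kinase and regulator genes of the fission yeast *Schizosaccharomyces pombe*: *cdc2*, *cdc13*, *cdc25*, *wee1*, *cig2*, *rum1*, *cdc10*, *cdc18*, *puc1* and *ste9*. They were taken by their identifiers from the 5129 protein-coding gene lines of a total RNA-seq table, and their measured values played no part in the rule. Stranded libraries of total RNA were sequenced from 2 biological replicates of *exo2*Δ cells (strain YAM2397, in which kanMX4 replaces *exo2*) and 2 of WT cells (strain YAM2394), both of mating type *h+*, both carrying *leu1-32*, *ura4-D18* and *ade6-M210*, and both in mid-log growth in rich YES medium. *exo2* encodes the cytoplasmic 5′-3′ exoribonuclease that is called Xrn1 in budding yeast, and long non-coding transcripts that accumulate without it are named XUTs. The comparison asks how much of each mRNA, and of any XUT on its other strand, was present without and with Exo2. Each genotype rests on 1 strain.

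In fission yeast a single cyclin-dependent kinase, Cdc2, drives both S phase and mitosis. The B-type cyclin Cdc13 carries Cdc2 into mitosis, Cig2 is the main S phase cyclin, and Puc1 acts in G1. The kinase Wee1 holds Cdc2 inactive by phosphorylating it and the phosphatase Cdc25 reverses this, while Rum1, a CDK inhibitor, and Ste9, an activator of the anaphase-promoting complex (APC/C), keep CDK activity low in G1. Cdc10 is a subunit of MBF, the transcription factor that switches on genes for S phase, among them *cdc18*, whose protein loads the replicative helicase at origins, and *cig2*.

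MBF is known to bind sites with an ACGCG core. The 300 nt before the annotated start of *cig2* and *cdc18* are printed here because, of the 10 genes, these windows alone held such a core, and because the antisense XUT at *cdc18*, described further on, covers the last 141 nt of its window. No XUT lies antisense to *cig2*. They come from the RefSeq sequence of assembly ASM294v3, at chrI:2709431-2709730 (+ strand) for *cig2* and chrII:2218032-2218331 (− strand) for *cdc18*, and are written 5′ to 3′ along the gene with ACGCG and its other-strand form CGCGT in capitals.
cig2: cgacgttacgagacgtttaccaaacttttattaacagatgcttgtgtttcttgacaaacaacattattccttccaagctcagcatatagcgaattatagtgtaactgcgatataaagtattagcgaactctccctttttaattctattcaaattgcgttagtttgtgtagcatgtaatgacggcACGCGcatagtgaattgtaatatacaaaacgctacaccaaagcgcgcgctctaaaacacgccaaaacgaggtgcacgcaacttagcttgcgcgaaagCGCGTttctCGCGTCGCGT
cdc18: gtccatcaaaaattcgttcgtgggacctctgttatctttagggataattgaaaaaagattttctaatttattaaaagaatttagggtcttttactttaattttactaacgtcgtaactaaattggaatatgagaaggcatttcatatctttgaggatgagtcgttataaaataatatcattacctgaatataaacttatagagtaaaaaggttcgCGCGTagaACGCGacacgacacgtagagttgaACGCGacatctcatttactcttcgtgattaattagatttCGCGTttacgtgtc

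Each of these windows held 4 matches, which begin 116, 19, 10 and 5 nt before the start in *cig2* and 85, 77, 53 and 14 nt before it in *cdc18*. None of the matches overlapped another. The windows of the other 8 genes held no match. In the ASM294v3 annotation the starts of *puc1*, *ste9* and *cdc25* lie 1093, 955 and 183 nt further in. Windows before those starts were not searched. Over the 5117 windows of the same length before mRNAs, 513 (10.03%) held at least 1 match and 21 (0.410%) held at least 4.

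The values are densities in tag/nt, that is, reads on a feature divided by its length and scaled by the authors on small nuclear and nucleolar RNAs, called sn(o)RNAs. The *exo2*Δ libraries held 50222633 and 51019820 reads on features and the WT libraries 48671182 and 46964618, and each of the 10 mRNAs rested on 435 to 7726 reads per library. The line of *exo2* itself was no lower in the *exo2*Δ libraries. It had 0.663 and 0.636 tag/nt in *exo2*Δ and 0.488 and 0.458 tag/nt in WT (log2 ratio 0.46 ± 0.09 SE, limma adjusted p = 0.00167). A deleted gene should leave few reads, but this line held 2426 and 2382 reads in *exo2*Δ and 2485 and 2181 in WT. The line thus goes against the labelled genotype, and the reason was not tested. The names *exo2*Δ and WT are those of the labels throughout. Per the methods, the deletion strain had been checked by PCR and northern blot. After a rescaling that sets the median mRNA equal in all libraries the *exo2* line was lower in *exo2*Δ (log2 ratio -0.62, limma adjusted p = 0.00206). This too is far from the near absence of reads that a deletion would leave.

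All 10 mRNAs were higher in *exo2*Δ than in WT, by a log2 ratio of 0.42 for *wee1* to 1.84 for *puc1*, and both *exo2*Δ libraries lay above both WT libraries for each of them. This is close to what mRNAs did in general. Of the 5079 mRNAs tested, 88.1% were called higher and 4.31% lower (limma, Benjamini-Hochberg adjusted p under 0.05), and 91.1% had no overlap between the groups with *exo2*Δ above. Past a 2-fold rise there were 6 of the 10, *cdc25*, *cig2*, *rum1*, *cdc10*, *cdc18* and *puc1*, against 54.8% of mRNAs (and 0.276% that fell past 2-fold). Tested against a 2-fold change (limma treat), 3 were called, *rum1*, *cdc18* and *puc1*, against 37% of mRNAs. The median log2 ratio of the 10 was 1.08 and that of all mRNAs was 1.08, with quartiles of 0.64 and 1.48. Of the 10, 5 lay above the median of all mRNAs and 5 below.

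**Figure D1:**
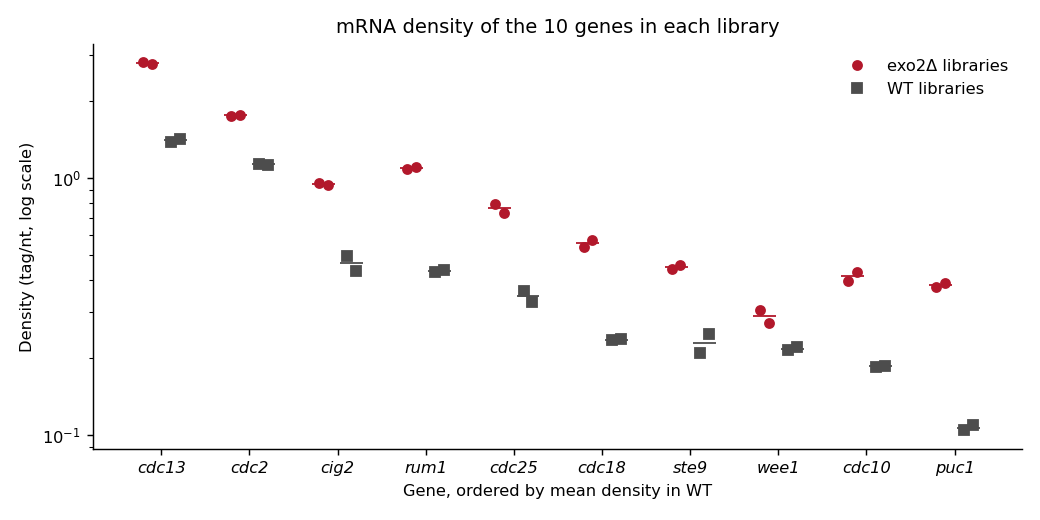
Density of each of the 10 mRNAs (vertical axis, tag/nt on a log scale) in the 2 *exo2*Δ libraries (red circles) and the 2 WT libraries (grey squares), with a line at the mean of each pair. The red points of every gene lie above its grey points, with the widest gap at *puc1* and the narrowest at *wee1*.

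Since nearly all mRNAs were higher in *exo2*Δ on the sn(o)RNA scale, each gene was also tested on a scale that sets the median mRNA equal in all libraries, where the ratio says how far a gene stood from that median. On this scale *puc1* and *rum1* were higher in *exo2*Δ, *cdc2* and *wee1* were lower, and the other 6 were not called by limma. Of all mRNAs tested, 31.6% were called higher and 32.9% lower there. Cells in different cell cycle stages were mixed in these cultures, so that a change in the share of cells at a stage and a change in RNA per cell cannot be told apart.

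**Figure D2:**
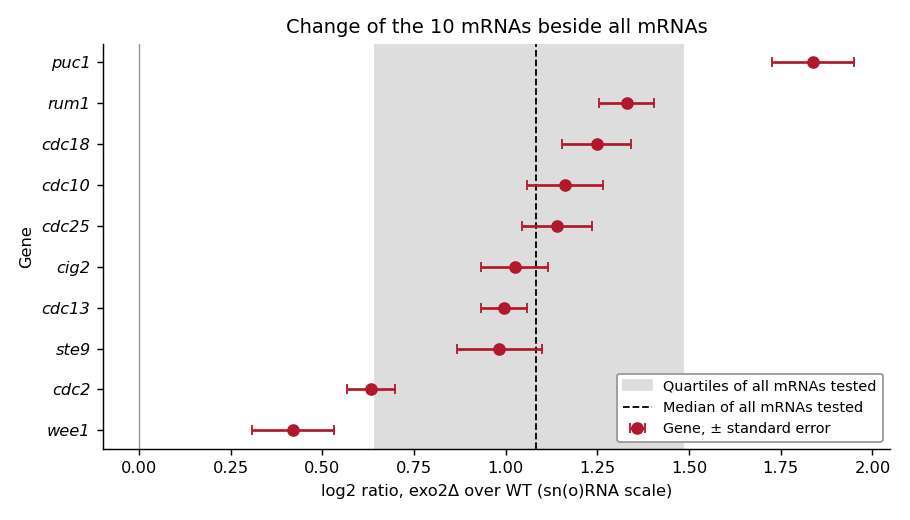
log2 ratio of *exo2*Δ over WT on the sn(o)RNA scale for each of the 10 mRNAs (red points, ± SE from limma, 2 libraries per genotype), with the quartiles (grey band, 0.64 to 1.48) and the median (dashed line, 1.08) of all mRNAs tested. *puc1* lies to the right of the band, *cdc2* and *wee1* lie to its left, and the other 7 lie within it.

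The kinase and its cyclins differed most among themselves. *cdc2* (SPBC11B10.09, chromosome II, 1500197 to 1502095, + strand, build ASM294v2 as for all genes) had 1.75 and 1.76 tag/nt in *exo2*Δ, against 1.13 and 1.13 tag/nt in WT. The 2 libraries of a genotype were nearly equal here, and the log2 ratio was 0.63 ± 0.07 (SE, limma adjusted p = 7.88e-05). Only 24.5% of mRNAs had a smaller log2 ratio than *cdc2*, and relative to the median mRNA it was lower in *exo2*Δ by a log2 ratio of -0.45 (limma adjusted p = 0.00157).

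*cdc13* (SPBC582.03, chromosome II, 420076 to 423276, + strand), the mitotic cyclin, had the densest of the 10 gene lines in all 4 libraries. The line of *cdc2* includes its introns, which lowers its density. On coding sequence alone *cdc2* was the denser, with 4.63 and 4.70 tag/nt in *exo2*Δ and 3.13 and 3.12 tag/nt in WT. The coding sequence of *cdc13* had 3.90 and 3.79 tag/nt in *exo2*Δ and 1.91 and 1.92 tag/nt in WT. Reads that span a junction inflate the coding density of *cdc2*, so that this rank is not settled. The line of *cdc13* had 2.82 and 2.77 tag/nt in *exo2*Δ and 1.38 and 1.42 tag/nt in WT, a ratio of means of 1.99 (log2 ratio 1.00 ± 0.06 SE, limma adjusted p = 8.63e-06). Against the median mRNA it was not called (log2 ratio -0.08, limma adjusted p = 0.264). The S phase cyclin *cig2* (SPAPB2B4.03, chromosome I, 2709731 to 2714162, + strand) had 0.952 and 0.939 tag/nt in *exo2*Δ and 0.497 and 0.435 tag/nt in WT. Its rise, with a log2 ratio of 1.02 ± 0.09 (SE, limma adjusted p = 4.07e-05), was close to that of *cdc13*, and it too was not called against the median mRNA (log2 ratio -0.05, limma adjusted p = 0.666).

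*puc1* (SPBC19F5.01c, chromosome II, 3699198 to 3702782, − strand), the G1 cyclin, had the largest rise of the 10. It had 0.375 and 0.389 tag/nt in *exo2*Δ, against 0.104 and 0.109 tag/nt in WT, so that the means of 0.382 ± 0.010 and 0.107 ± 0.004 tag/nt (SD, n = 2 each) stood 3.58-fold apart. The log2 ratio was 1.84 ± 0.11 (SE, limma adjusted p = 7.61e-06) and 88.2% of mRNAs had a smaller one. Relative to the median mRNA the log2 ratio was 0.76 (limma adjusted p = 0.00133). *puc1* was the lowest of the 10 in WT, where 14.9% of mRNAs had a lower density, while in *exo2*Δ 23.1% of mRNAs were below it and *wee1* took the lowest place among the 10.

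The regulators that set the phosphorylation of Cdc2 moved by unequal amounts. *wee1* (SPCC18B5.03, chromosome III, 721788 to 725835, + strand), the inhibitory kinase, had 0.307 and 0.273 tag/nt in *exo2*Δ and 0.214 and 0.219 tag/nt in WT. The groups did not overlap, but the lower *exo2*Δ library stood only slightly above WT, and the rise was the smallest of the 10 (log2 ratio 0.42 ± 0.11 SE, limma adjusted p = 0.00929). Without *exo2*Δ replicate 1 the log2 ratio was 0.33 and the call was lost (limma adjusted p = 0.0896). Only 16.3% of mRNAs had a smaller log2 ratio, and relative to the median mRNA *wee1* was lower in *exo2*Δ (log2 ratio -0.66, limma adjusted p = 0.00437).

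*cdc25* (SPAC24H6.05, chromosome I, 479228 to 482556, − strand), the phosphatase that acts against Wee1, had 0.791 and 0.733 tag/nt in *exo2*Δ, against 0.363 and 0.329 tag/nt in WT. Its rise (log2 ratio 1.14 ± 0.09 SE, limma adjusted p = 2.79e-05) was that of a typical mRNA, and against the median mRNA it was not called (log2 ratio 0.06, limma adjusted p = 0.616). A ratio of 2 genes within a library is free of any scaling of the libraries. *cdc25* had 2.57 and 2.68 times the density of *wee1* in *exo2*Δ and 1.69 and 1.50 times it in WT, with no overlap.

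The inhibitor of CDK activity *rum1* (SPBC32F12.09, chromosome II, 2799685 to 2801917, + strand) had 1.08 and 1.10 tag/nt in *exo2*Δ and 0.432 and 0.437 tag/nt in WT. Its log2 ratio of 1.33 ± 0.08 (SE, limma adjusted p = 6.29e-06) was the second largest of the 10, and relative to the median mRNA it was 0.25 (limma adjusted p = 0.0182). *rum1* reached 0.620 and 0.628 times the density of *cdc2* in *exo2*Δ, against 0.381 and 0.388 times in WT. It stood above *cig2* in both *exo2*Δ libraries, while the densities of *cig2* and *rum1* overlapped in WT.

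*ste9* (SPAC144.13c, chromosome I, 4677611 to 4681148, − strand, named *srw1* in the RefSeq annotation), the APC/C activator, had 0.441 and 0.456 tag/nt in *exo2*Δ, against 0.208 and 0.247 tag/nt in WT. The WT libraries of *ste9* were farther apart than those of the other genes in relative terms, and the log2 ratio of 0.98 ± 0.12 (SE, limma adjusted p = 1.57e-04) had the largest SE of the 10. It was not called against the median mRNA (log2 ratio -0.09, limma adjusted p = 0.448).

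*cdc10* and *cdc18*, a subunit of MBF and one of its targets, rose by similar amounts. *cdc10* (SPBC336.12c, chromosome II, 2760741 to 2763830, − strand) had 0.397 and 0.432 tag/nt in *exo2*Δ and 0.184 and 0.186 tag/nt in WT (log2 ratio 1.16 ± 0.10 SE, limma adjusted p = 3.82e-05). *cdc18* (SPBC14C8.07c, chromosome II, 2215955 to 2218031, − strand) had 0.539 and 0.576 tag/nt in *exo2*Δ and 0.233 and 0.236 tag/nt in WT (log2 ratio 1.25 ± 0.09 SE, limma adjusted p = 1.76e-05). Neither was called against the median mRNA, where the log2 ratios were 0.09 for *cdc10* (limma adjusted p = 0.421) and 0.17 for *cdc18* (limma adjusted p = 0.105).

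The order of the levels was similar in both genotypes at the top and differed at the bottom. In *exo2*Δ it ran *cdc13*, *cdc2*, *rum1*, *cig2*, *cdc25*, *cdc18*, *ste9*, *cdc10*, *puc1* and *wee1*, and no neighbours in this order overlapped. In WT it ran *cdc13*, *cdc2*, *cig2*, *rum1*, *cdc25*, *cdc18*, *ste9*, *wee1*, *cdc10* and *puc1*, where *cig2* and *rum1*, *cdc18* and *ste9*, and *ste9* and *wee1* were not separated by their libraries. The highest mean stood 9.62-fold above the lowest in *exo2*Δ and 13.1-fold above it in WT. These ranks are of whole gene lines, and the coding sequences alone gave other ranks. In *exo2*Δ the mean densities of coding sequence were 0.771 tag/nt for *ste9*, 0.734 for *puc1*, 0.641 for *cdc18* and 0.528 for *cdc10*. Set against *cdc2* within each library, *cdc13* had 1.61 and 1.58 times its density in *exo2*Δ and 1.22 and 1.26 times in WT. *puc1* reached 21.4% and 22.2% of the density of *cdc2* in *exo2*Δ, against 9.19% and 9.71% in WT. *wee1* went the other way, with 17.6% and 15.6% in *exo2*Δ and 18.9% and 19.4% in WT. This did not hold on coding sequence, where *wee1* had 0.290 and 0.244 tag/nt in *exo2*Δ and 0.186 and 0.195 tag/nt in WT. Set against the coding densities of *cdc2* given above, the genotypes overlapped. With whole gene lines, for none of the other 9 genes did the ratio to *cdc2* overlap between the genotypes. It was higher in *exo2*Δ for all of them but *wee1*. The share of all mRNAs that did so is not given here. Since only 24.5% of mRNAs had a smaller log2 ratio than *cdc2*, a rise relative to *cdc2* was common among mRNAs and not particular to these genes.

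The coding and non-coding stretches of a gene did not always move alike. The coding sequence of *puc1*, 30.1% of its line, had 0.710 and 0.759 tag/nt in *exo2*Δ and 0.183 and 0.179 tag/nt in WT (log2 ratio of means 2.02), while the remainder had a log2 ratio of 1.62. For *wee1* the coding sequence gave 0.49 and the remainder 0.33, and for *cdc25* they gave 1.03 and 1.35. In *cdc2*, the only one of the 10 with more than 1 coding exon in the table, the 5 coding exons gave log2 ratios of 0.46, 0.55, 0.54, 0.64 and 0.70 along the gene. Reads that span a junction count in each exon they touch, which inflates the densities of short exons. No test was run on these stretches.

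Antisense XUTs lay at 2 of the 10 genes, *cdc18* and *ste9*, with at least 50 nt of overlap, and 21.2% of all 5129 genes had one. The authors selected XUTs for a rise of over 2-fold in these same 4 libraries, so the rises of these XUTs are given as a description and are not independent evidence.

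**Figure D3:**
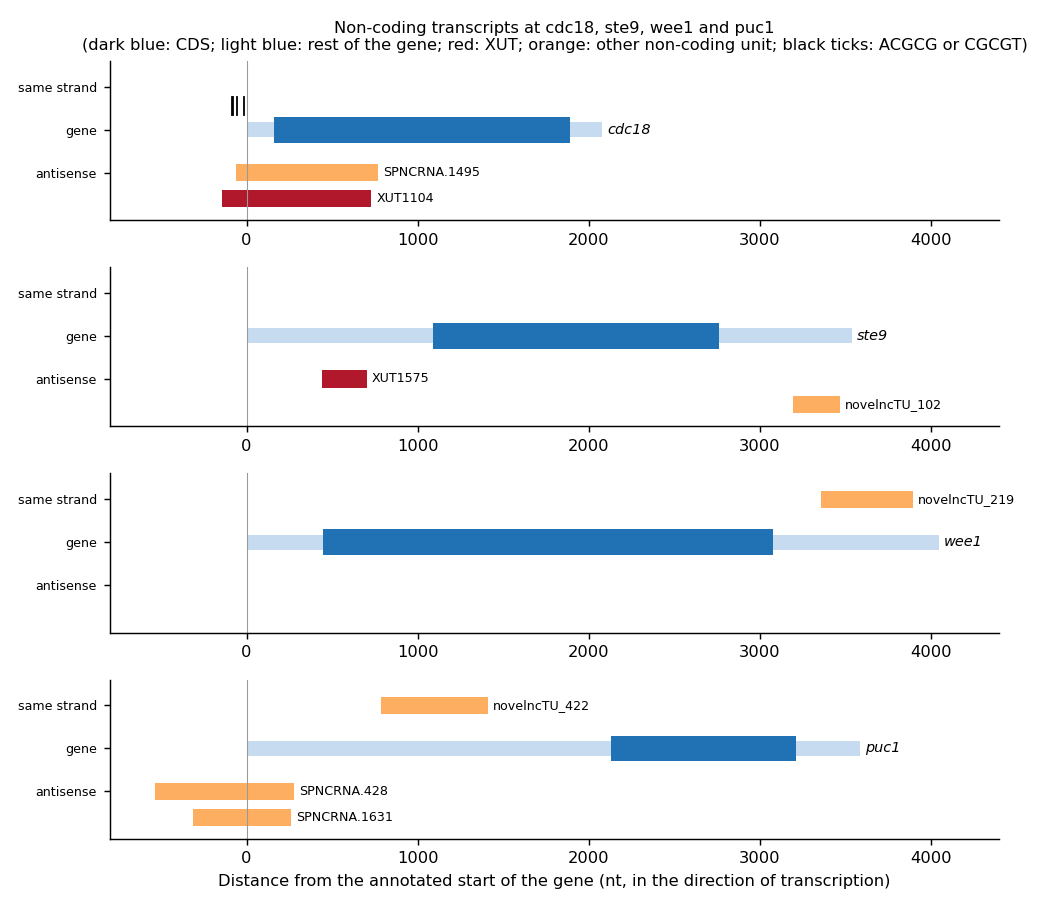
Positions of non-coding transcripts at *cdc18*, *ste9*, *wee1* and *puc1*, as distance in nt from the annotated start of the gene in its direction of transcription, drawn to scale with the coding sequence in dark blue, the remainder of the gene in light blue, XUTs in red, other non-coding units in orange, and ACGCG matches as black ticks above *cdc18* (the matches in *cig2* are not drawn). XUT1104 covers the start of *cdc18* and runs 141 nt beyond it, and XUT1575 lies inside the line of *ste9* ahead of its coding sequence.

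XUT1104 (chromosome II, 2217303 to 2218172, + strand, 870 nt) lay across the start of *cdc18*. It overlapped 729 nt of the gene (35.1% of its length), covered the start codon and 571 nt of the coding sequence, and ran 141 nt beyond the annotated start, so that it spanned all 4 ACGCG matches printed above for *cdc18*. It had 0.214 and 0.181 tag/nt in *exo2*Δ (159 and 137 reads), against 0.0320 and 0.0301 tag/nt in WT (33 and 29 reads), a log2 ratio of 2.66. The density of XUT1104 was 39.8% and 31.4% of that of *cdc18* in *exo2*Δ and 13.7% and 12.8% in WT. On the sn(o)RNA scale, sense and antisense RNA were thus both higher in *exo2*Δ at *cdc18*. The ratio was larger on the antisense strand, which the selection of XUTs for a rise favours. Relative to the median mRNA the log2 ratio was 1.58 for XUT1104, while *cdc18*, at 0.17, was not called. An annotated lncRNA, SPNCRNA.1495, occupies nearly the same stretch of that strand (834 nt, log2 ratio 2.69) and shares reads with XUT1104, so that they do not count as separate transcripts.

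XUT1575 (chromosome I, 4680445 to 4680709, + strand, 265 nt) lay within the line of *ste9* ahead of its coding sequence. It was weak, with 0.0797 and 0.0822 tag/nt in *exo2*Δ (18 and 19 reads) and 0.0159 and 0.0170 tag/nt in WT (5 and 5 reads), a log2 ratio of 2.29. Whether it counts as antisense to *ste9* depends on the annotation, since in ASM294v3 the gene begins 955 nt further in and XUT1575 lies outside it. The start of *puc1* is likewise 1093 nt further in there, and those of the other 8 genes differ by -8 to 183 nt. The coding exons of the 10 genes have the same coordinates in both builds.

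**Figure D4:**
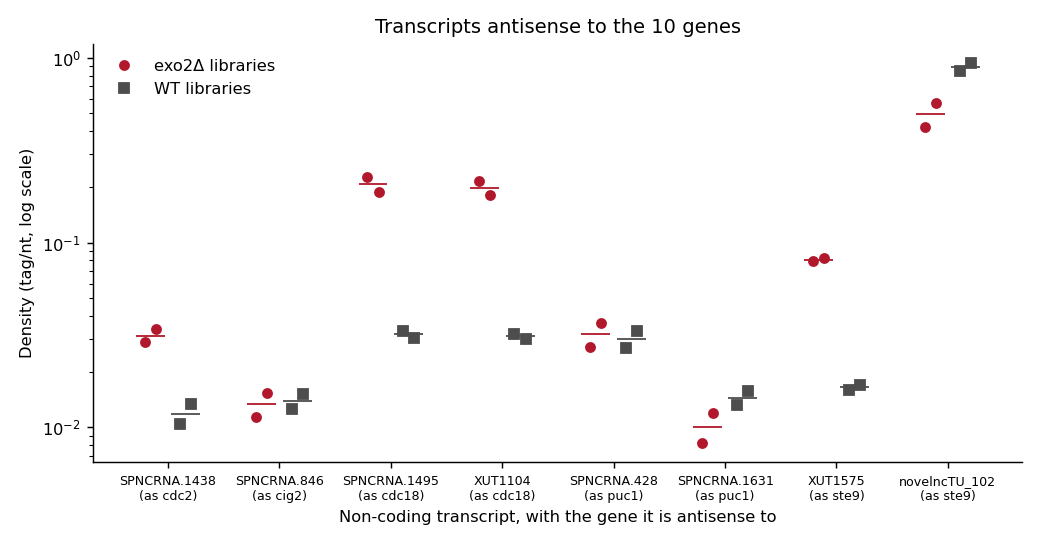
Density (vertical axis, tag/nt on a log scale) of each non-coding transcript antisense to one of the 10 genes in the 2 *exo2*Δ libraries (red circles) and the 2 WT libraries (grey squares), with a line at each mean. XUT1104, SPNCRNA.1495 and XUT1575 stand far apart between the genotypes, SPNCRNA.846 and SPNCRNA.428 overlap, and novelncTU_102 is lower in *exo2*Δ.

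Antisense transcripts that were not named XUTs had log2 ratios on either side of 0. SPNCRNA.1438, across the start of *cdc2* with 602 nt of overlap, had 0.0289 and 0.0338 tag/nt in *exo2*Δ and 0.0104 and 0.0133 tag/nt in WT. These are 20 and 24 reads in *exo2*Δ and 10 and 12 in WT, and the log2 ratio was 1.40 ± 0.34 (SE, limma adjusted p = 0.00613). The call was lost without *exo2*Δ replicate 2 (log2 ratio 1.28, limma adjusted p = 0.0532) and was absent relative to the median mRNA (log2 ratio 0.33, limma adjusted p = 0.392).

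SPNCRNA.846, which covers the whole coding sequence of *cig2* on the other strand, had 0.0114 and 0.0153 tag/nt in *exo2*Δ and 0.0125 and 0.0152 tag/nt in WT (log2 ratio -0.07 ± 0.41 SE, limma adjusted p = 0.885). Relative to the median mRNA it was called lower (log2 ratio -1.13, limma adjusted p = 0.0449). At *puc1*, SPNCRNA.428 had a log2 ratio of 0.08 (limma adjusted p = 0.797) and SPNCRNA.1631, with 4 to 10 reads per library, one of -0.54 (limma adjusted p = 0.286). Relative to the median mRNA the log2 ratios were -0.99 for SPNCRNA.428 (limma adjusted p = 0.0215) and -1.60 for SPNCRNA.1631 (limma adjusted p = 0.0188). SPNCRNA.1631 lies wholly inside SPNCRNA.428 on the same strand, so that they do not count as separate transcripts. In ASM294v3, where the start of *puc1* is 1093 nt further in, both lie outside the gene. Of the 1794 annotated ncRNAs and added non-coding units tested, 63.7% were called higher and 6.13% lower on the sn(o)RNA scale. Their shares relative to the median mRNA are not given here.

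novelncTU_102, antisense to the 3′ part of *ste9*, was lower in *exo2*Δ. It had 0.420 and 0.569 tag/nt in *exo2*Δ, against 0.851 and 0.938 tag/nt in WT (log2 ratio -0.87 ± 0.15 SE, limma adjusted p = 0.00102). This unit lies inside the convergent gene *rki1* on its strand and shares reads with it, and *rki1* itself rose (log2 ratio 0.69, limma adjusted p = 5.63e-05).

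On the sense strand, 3 non-coding units lie inside a gene and share its reads. novelncTU_219, in the 3′ part of *wee1*, had 0.733 and 0.701 tag/nt in *exo2*Δ and 0.659 and 0.650 tag/nt in WT (log2 ratio 0.13 ± 0.08 SE, limma adjusted p = 0.149), and held 31.7% and 34.1% of the reads of *wee1* in *exo2*Δ and 40.9% and 39.5% in WT. The unit was denser than the *wee1* line in every library, at 239% and 257% of its density in *exo2*Δ and 307% and 297% in WT. Its reads are part of the *wee1* line in the comparisons above, the ratios of *cdc25* to *wee1* and of the *wee1* line to *cdc2* included. novelncTU_175 in *rum1* (log2 ratio 1.30) and novelncTU_422 in *puc1* (log2 ratio 1.81) moved with their genes.

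The other genes of these pathways were taken from 8 lists, in which 68 of 71 genes, the 10 included, were called higher, none was called lower and 46 passed a 2-fold rise (limma, adjusted p under 0.05), beside 88.1% of all mRNAs higher, 4.31% lower and 54.8% past a 2-fold rise. The median log2 ratio over the lists was 1.11, beside 1.08 for all mRNAs. Relative to the median mRNA 19 were higher and 15 lower, beside 31.6% and 32.9% of all mRNAs. The counts of single lists that follow stand against the same share of 88.1% higher. The 3 genes not called were *pom1*, a polarity kinase upstream of Wee1 (log2 ratio 0.26, limma adjusted p = 0.0691, a call that some alternative settings gain), *rep1*, an activator of MBF (log2 ratio -0.09, limma adjusted p = 0.733), and *bub1*, a spindle checkpoint kinase (log2 ratio 0.04, limma adjusted p = 0.751).

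Among kinase subunits and cyclins all 10 listed genes rose, with a median log2 ratio of 1.01. After *puc1* the largest rises were those of *mcs2*, a cyclin of the CDK-activating kinase, at 1.72, and *suc1*, which binds Cdc2, at 1.67. Of 7 genes that control the phosphorylation of Cdc2, 6 rose, with a median of 1.15. The kinase *cdr1*, which restrains Wee1, had a log2 ratio of 1.52, *mik1*, a kinase that acts beside Wee1, 1.42, and *pyp3*, a phosphatase that acts beside Cdc25, 1.25, while *wee1* had the smallest rise of the 6.

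MBF and its regulators gave 6 of 7 genes higher (median 1.16), with *yox1*, a repressor that binds MBF, at 1.81, *res2*, a subunit of MBF, at 1.33 and *rep2*, its activator, at 1.28. All 9 MBF targets rose (median 1.11, from 0.77 to 1.42), the largest in *mik1* at 1.42, *cdt2* at 1.30 and *cdc18* at 1.25, with *cig2* at 1.02. Relative to the median mRNA 2 of the 9, *mik1* and *cdt2*, were higher, by 0.35 and 0.23, while 1 was lower and 6 were not called. Of all mRNAs, 31.6% were called higher and 32.9% lower there.

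All 13 genes of the APC/C and its coactivators rose (median 1.22). The subunit *cut20* had the largest rise of those with enough reads, with 0.369 and 0.377 tag/nt in *exo2*Δ and 0.0659 and 0.0681 tag/nt in WT (log2 ratio 2.47, limma adjusted p = 3.97e-06), and *nuc2*, another subunit, had a log2 ratio of 1.41. *ste9*, at 0.98, lay below the median of this list. The meiotic coactivator *mfr1* stands highest in the plot of the lists (log2 ratio 3.38), on 35 reads over all 4 libraries, and is named after its value was seen.

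The SCF ubiquitin ligase, which targets Rum1 and Cdc18 for degradation, had all 5 genes higher (median 1.64), led by *rbx1* at 1.72, *cul1* at 1.67 and *skp1* at 1.64, and 4 of the 5 were higher relative to the median mRNA, as were 31.6% of all mRNAs. All 12 origin licensing genes rose (median 0.96), with *orc3* at 1.52, *mcm5* at 1.24 and *orc5* at 1.11 the largest. Relative to the median mRNA 1 of the 12 was higher, 4 were lower and 7 were not called, beside 31.6% higher and 32.9% lower of all mRNAs. Of 10 mitotic and checkpoint kinases 9 rose (median 1.09), led by *hsk1*, the kinase that fires origins, at 1.82, *plo1*, the Polo kinase, at 1.80 and *ark1*, the Aurora kinase, at 1.75.

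**Figure D5:**
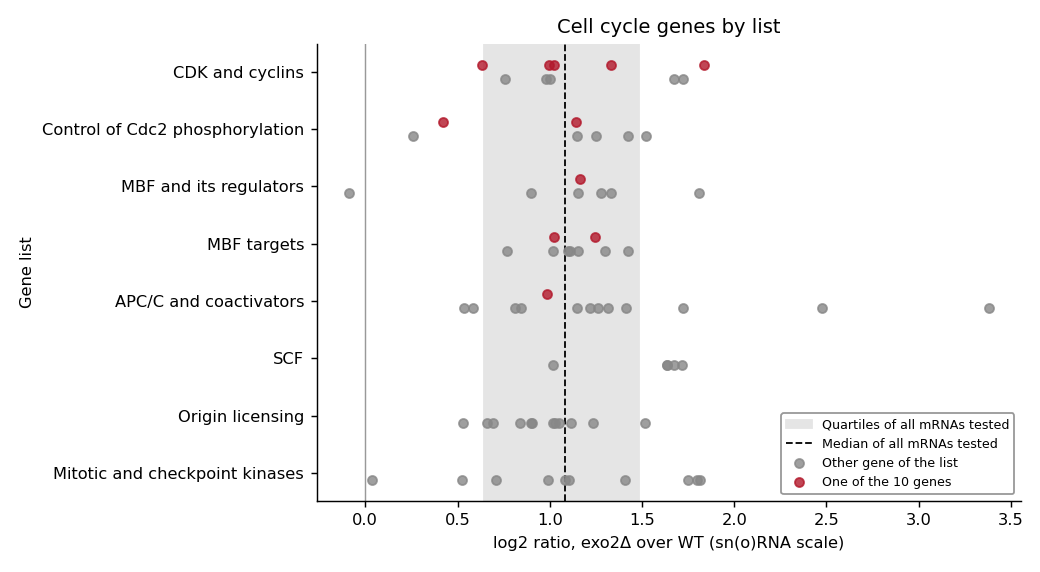
log2 ratio of *exo2*Δ over WT on the sn(o)RNA scale for each gene of the 8 cell cycle lists (1 row per list; red points are the 10 genes, grey points the others), with the quartiles (grey band) and median (dashed line, 1.08) of all mRNAs tested. All but 3 of the 71 genes were called higher, and most points lie in or near the band.

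The mRNAs most like *puc1* over the 4 log2 densities, by Euclidean distance, were *wtf25* (0.06), *isp3* (0.18) and *yox1* (0.20). *wtf25* had 0.381 and 0.384 tag/nt in *exo2*Δ and 0.107 and 0.112 tag/nt in WT. Those most like *wee1* were *rnh203* (0.10), *ubc12* (0.15) and *rhp16* (0.22), of which *rnh203* had 0.328 and 0.269 tag/nt in *exo2*Δ and 0.213 and 0.219 tag/nt in WT.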

How the data were processed

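Total RNA of 2 *exo2*Δ and 2 WT cultures was extracted with hot phenol and depleted of rRNA by the authors, who made stranded libraries from 125 ng and sequenced paired ends of 50 nt. Per the labels, reads were mapped with TopHat on ASM294v2. The deposited signal is a density in tag/nt per feature, which the authors normalized on sn(o)RNA levels. How reads on overlapping features were counted is not given in the sources used here, and sums over replicates in the table were not used.

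Within each library, 100% of the densities multiplied by length fell on whole steps (within 0.05 of a read, checked under 10000 reads), and these steps gave the reads behind each density. limma 3.58.1 in R 4.3.3 was fitted with a variance trend to log2(density + 1.55e-04) with genotype as the term, for the 8826 features whose reads in all 4 libraries came to 10 or more. Benjamini-Hochberg adjustment ran across these 8826, with calls made under 0.05. A fold change on this scale understates that of low features. The test was run on simulated data. With 2 libraries per genotype an exact permutation test of 1 gene cannot pass 0.05, so p-values come from the spread between these cultures, pooled across features.

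The members and lists were chosen with earlier results of these data known. The named genes were the 10, every antisense lncRNA with at least 50 nt of overlap and every same-strand one with at least 1 nt, *exo2*, up to 3 largest rises and falls per list among genes with 50 reads or more in all, and the 3 mRNAs nearest to the genes with the largest and smallest rise. One gene that this rule names is not reported here. Lists were matched by symbol, with *pip1* listed as *rbx1*. Gene names came from the RefSeq annotation of ASM294v3, where 5111 of 5129 genes matched by locus tag. Of 10204 coding exon lines 10026 had the same coordinates in both builds. Protein sequences were not used here. Alternatives covered scaling, filter, pseudocount, variance trend, replicate block, test against 2-fold, coding exons, overlap and leaving out each library. Python 3.11.15, pandas 2.3.3, numpy 2.4.6, biopython 1.88 and matplotlib 3.10.9 were used.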

Additional observations from a re-analysis of the deposited data

How the results depend on the processing

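The scaling decided the calls. The median log2 ratio of mRNAs was 1.08 on the sn(o)RNA scale, 1.15 by the sum of sn(o)RNA reads, 0.59 by total reads on features, and near 0 by a median of ratios over mRNAs (0.01) or over all features (-0.12), and ratios of single genes are to be read relative to it. By the median over all features, the log2 ratios turned to -0.58 for *cdc2*, -0.21 for *cdc13*, -0.066 for *cdc25*, -0.79 for *wee1*, -0.18 for *cig2*, -0.044 for *cdc10*, -0.22 for *ste9* and -1.12 for SPNCRNA.428. By the median over mRNAs they turned to -0.45 for *cdc2*, -0.081 for *cdc13*, -0.66 for *wee1*, -0.053 for *cig2*, -0.094 for *ste9* and -0.99 for SPNCRNA.428. As differences from the median mRNA they were -0.45 for *cdc2*, -0.086 for *cdc13*, -0.66 for *wee1*, -0.058 for *cig2* and -0.10 for *ste9*, and by total reads *wee1* was at -0.074 and *cdc2*, at 0.14, was not called. Of the 10 genes, 2 were called higher and 2 lower by the median over mRNAs, beside 31.6% and 32.9% of all mRNAs. Tested against a 2-fold change 3 were higher, beside 37% of mRNAs. By the median over all features 1 was called higher and 3 lower. Past 2-fold there was 1 by total reads and 0 by either median at any p, since the largest log2 ratio, that of *puc1*, was 0.63 and 0.76 there. Over the lists 16 were higher and 21 lower by the median over all features, 19 and 15 by that over mRNAs, and 1 was lower by total reads. The shares of all mRNAs called by the median over all features and by total reads are not given here. The counts under these settings, of the 10 genes and of the lists, therefore show only how the calls depend on the scaling.

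Without one library at a time, the log2 ratio of *wee1* was 0.33 to 0.50 and that of SPNCRNA.1438 1.22 to 1.58. The median log2 ratio of all mRNAs was 1.05 to 1.11 in these fits. They assume that the lone library of a genotype varies like the other genotype. With coding exon lines only, *cdc2* gave 0.58, *rum1* 1.31 and *puc1* 2.02. Replicate numbers are shared by both genotypes in the labels without a statement that they mark cultures grown together. Deviations of same-numbered libraries correlated at 0.283 over 5447 features, and a fit that took this number as a replicate block left 10 of the 10 genes called higher and added *pom1*, for 7 of 7 genes that control Cdc2 phosphorylation and 69 higher over the lists. It changed no other call. The sum of sn(o)RNA reads gave the same 7 and 69, and 8 of the 10 genes past 2-fold, where the median log2 ratio of mRNAs was also higher, at 1.15. The shares of all mRNAs called under the replicate block and under this scaling are not given here. A filter at 100 reads also gave 7 of 7 there, 12 higher in the APC/C list, where *mfr1* drops out, and left out the rarest lncRNAs. The pseudocount, no filter and no variance trend moved none of these counts. SPNCRNA.846 and SPNCRNA.1631, not called on the sn(o)RNA scale, were called lower by the median over mRNAs (-1.13 and -1.60) and over all features (-1.26 and -1.73). Depth limits XUT1575, SPNCRNA.1438, SPNCRNA.846, SPNCRNA.428 and SPNCRNA.1631, which rest on 4 to 33 reads per library. An unequal amount of sn(o)RNA per cell and a rise of mRNAs cannot be told apart.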

Other observations

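The protein-coding genes that converge on the 10 genes and overlap their 3′ parts on the other strand rose with them, as 88.1% of mRNAs did. *dsh1*, which meets *cdc13* over 8 nt, had 0.896 and 0.977 tag/nt in *exo2*Δ and 0.230 and 0.245 tag/nt in WT (log2 ratio 1.98, limma adjusted p = 3.66e-06). *vps52*, which overlaps *cdc10* by 471 nt, had a log2 ratio of 1.30, SPBP8B7.31, which overlaps *puc1* by 149 nt, one of 1.13, and *rki1*, which overlaps *ste9* by 564 nt, one of 0.69. The longest overlap, 1459 nt, was that of *pmc1* with *cig2*, and *pmc1* had 0.641 and 0.656 tag/nt in *exo2*Δ and 0.378 and 0.342 tag/nt in WT (log2 ratio 0.85, limma adjusted p = 9.91e-05). Relative to the median mRNA *dsh1* was higher by 0.90 (limma adjusted p = 2.83e-04), where *cdc13* was not called.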
